A study of Mus musculus with 4 samples.

Results

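Bone morphogenetic proteins (BMPs) and the myostatin-activin ligands are the opposing arms of TGF-beta family signalling in muscle. BMP ligands bind type I and type II receptor kinases that activate Smad1, Smad5 and Smad9, which induce the Id genes. Id proteins lack a DNA-binding region and hold E proteins away from MyoD and myogenin, so they are known to delay muscle differentiation. Myostatin and activin A signal through Acvr2a and Acvr2b to Smad2 and Smad3 and restrain muscle growth, and follistatin binds and neutralizes both. Smad6 and Smad7 are inhibitory Smads that the pathways themselves induce and that dampen receptor signalling.

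The 10 genes described here, out of 20065 in the deposited table, are the 4 Id genes, the ligand gene Bmp4, the inhibitory Smads Smad6 and Smad7, the ligand genes Mstn and Inhba and the follistatin gene Fst. They were chosen by name, as members of these pathways, and all 10 had a row in the table. RNA-seq was performed on cultured satellite cells (MuSC) from limb and trunk muscles of adult mice on a C57BL/6 background, with 2 control and 2 Prmt5sKO libraries. Prmt5 encodes an arginine methyltransferase. The paper gives its control as Pax7CreERT2/Prmt5+/loxP and Prmt5sKO as Pax7CreERT2/Prmt5loxP/loxP, while the sample titles call the control WT. The labels mark both groups +TAM (tamoxifen). By the genotype in the paper, control cells shared the Cre, which is expressed from Pax7, and carried 1 allele open to deletion. The paper describes the MuSC used for RNA-seq in both groups as treated with 4-OH (4-hydroxytamoxifen). The labels do not say whether the libraries of a group came from separate mice, so that p-values measure the spread between these libraries, which may be technical.

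The authors deposited the mean of each group. The whole counts behind each library were recovered from the steps of these means, and since the columns carry no replicate number the libraries are named by depth as the deeper and the shallower library of their group. The 4 libraries held between 13240754 and 20047430 counts. Values are given as normalized counts, which are counts scaled to a common library size by the trimmed mean of M-values (TMM). For a pair of libraries of a group, the deeper one comes first. Prmt5 normalized counts were 2273 and 2906 for control against 244 and 202 for Prmt5sKO. This difference, a log2 fold change of -3.52, had the smallest p of all genes, yet its adjusted p of 0.193 (limma-voom) did not pass. The test, on 2 libraries per group, thus missed the deleted gene itself, so that a gene that did not pass is not shown to be unchanged. Why it missed this gene was not tested. All 8 satellite cell and myoblast markers were listed, with summed normalized counts of 45022 to 52982 in control and 46250 to 76597 in Prmt5sKO. The shallower Prmt5sKO library stood apart in muscle differentiation. Over 10 markers of differentiating muscle, the summed normalized counts were 49208 and 96609 for control against 43556 and 358460 for Prmt5sKO. Ttn made up much of this sum, at 39149 and 90033 for control against 28427 and 171011 for Prmt5sKO. Of the 10 markers, 8 were higher than control in the deeper Prmt5sKO library as well, where 25.2% of all genes tested were higher in both Prmt5sKO libraries. Acta1 had 2366 and 1001 for control against 4951 and 60227 for Prmt5sKO. The excess of the deeper library was smaller for others, such as Myh3, at 2858 and 1738 against 3024 and 70413, and Myl1, at 275 and 152 against 316 and 7379.

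Across the 10 genes, Fst, Mstn and Bmp4 lay above control and Smad6 below control in both Prmt5sKO libraries. The groups overlapped for Id1, Id2, Id3, Id4, Smad7 and Inhba. A minimum mean of 5 normalized counts left 9 of the 10 genes for the test, with Bmp4 below it. None of the 9 passed in limma-voom with Benjamini-Hochberg adjustment over 16212 genes (thresholds of 0.05 for the adjusted p and 2 for the fold change), where 0% of all genes tested passed. The paper, which compared the same groups with another test (DESeq2), did report regulated genes at a false discovery rate under 0.05. The 0% thus belongs to the test used here and does not mean that the groups were alike. The smallest adjusted p among the 9 was 0.284, for Fst. At an unadjusted p under 0.05 there were 2 of the 9, Fst and Smad6, against 13.0% of all genes tested. Fst was higher and Smad6 lower, against 6.01% higher and 6.95% lower over all genes. The alternative limma-trend called 0 of the 9, with 2 at an unadjusted p under 0.05. Of the 9, 3 had groups that did not overlap, against 48.8% of all genes tested, and the difference between these shares was not tested. Of the 3, 2 were higher, against 25.2% of all genes, and 1 was lower, against 23.6%. The median log2 fold change of the 9 genes was 0.04, beside 0.02 over all genes tested.

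**Figure D1:**
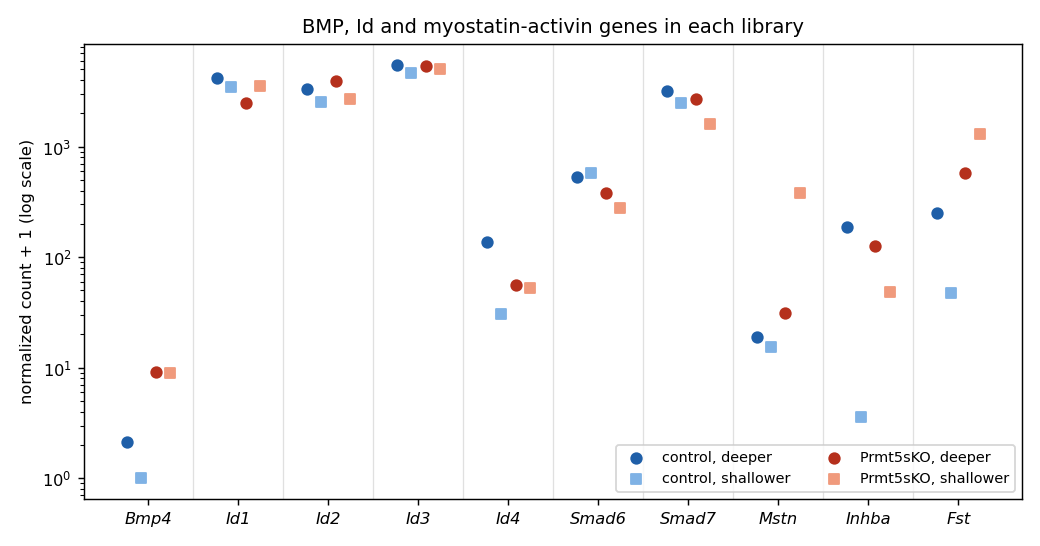
Normalized counts plus 1, on a log scale, of the 10 genes in each of the 4 libraries (blue, control; red, Prmt5sKO; circles, deeper library; squares, shallower library). Fst, Mstn and Bmp4 lie higher and Smad6 lower in both Prmt5sKO libraries, and the points of Id1, Id2, Id3, Id4, Smad7 and Inhba overlap between the groups.

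Bmp4 encodes a BMP ligand (ENSMUSG00000021835, chromosome 14, 46383520 to 46390669, minus strand, GRCm38). It was scarcely expressed. Reads numbered 1 and 0 for control against 11 and 8 for Prmt5sKO. A count of 0 allows up to 3 reads. In normalized counts this was 1.13 and 0 for control against 8.15 and 8.05 for Prmt5sKO. Both Prmt5sKO libraries were thus above both control libraries, at a level close to the limit of detection. The summed counts of 1 and 19 gave a ratio of 13.4 with an exact 95% counting interval of 2.13 to 558, which covers counting error only, and the gene was too low for the test. Exons of Gm15217 overlap those of Bmp4 on the opposite strand, and whether counting told reads of the pair apart is not known.

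Other BMP ligands had few reads as well. Of 12 BMP ligand genes on the list, 8 were listed in the table and 5 reached the minimum for the test, and 0 of the 5 passed in either direction (limma-voom). Gdf6, a BMP ligand of joint and tendon development, stood at 18.1 and 2.59 normalized counts for control against 62.2 and 55.3 for Prmt5sKO, with an adjusted p of 0.323 (limma-voom). Bmp2 had 9.04 and 5.19 for control against 19.3 and 31.2 for Prmt5sKO. For both ligands the lower Prmt5sKO value lay above the higher control value.

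Among the BMP receptors, Bmpr1a, the main type I receptor, had 2408 and 2275 normalized counts for control against 2136 and 2642 for Prmt5sKO, a log2 fold change of 0.02 with a 95% interval of -0.49 to 0.54. Bmpr2, the type II receptor, had 1926 and 1765 for control against 1581 and 1592 for Prmt5sKO (95% interval of the log2 fold change -0.69 to 0.26). Bmpr2 was slightly lower in both Prmt5sKO libraries, while the groups overlapped for Bmpr1a. Of the 9 receptors and co-receptors tested, 0 passed. Groups did not overlap for 7 of them, against 48.8% of all genes tested, with 5 higher (all genes, 25.2%) and 2 lower (all genes, 23.6%) in Prmt5sKO. The 2 largest differences were carried mainly by 1 Prmt5sKO library each. Acvrl1, a type I receptor best known from endothelium, had 23.7 and 20.8 normalized counts for control against 279 and 39.2 for Prmt5sKO. The co-receptor hemojuvelin (Hfe2) had 49.7 and 20.8 for control against 74.8 and 1231 for Prmt5sKO. Among extracellular antagonists and modulators 0 of 11 tested genes passed. Of the 11, 1 was higher and 3 lower in both Prmt5sKO libraries (all genes, 25.2% and 23.6%), and 7 overlapped. The higher one was chordin (Chrd), a BMP antagonist, at 20.3 and 16.9 for control against 21.5 and 151 for Prmt5sKO. Its difference was carried mainly by the shallower Prmt5sKO library.

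Of the BMP Smads and Smad4, 0 of 4 passed. Smad1 had 1101 and 1227 normalized counts for control against 1054 and 936 for Prmt5sKO. Smad5 had 2089.5 and 2333 for control against 2181 and 1681 for Prmt5sKO. Smad4, the partner shared by both arms, had 1684 and 1673 for control against 1806 and 1446 for Prmt5sKO. The groups overlapped for Smad4 and Smad5. Smad9 had 392 and 508 for control against 285 and 186 for Prmt5sKO, a log2 fold change of -0.92 (adjusted p = 0.336, limma-voom).

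Smad6 encodes the inhibitory Smad that acts chiefly on BMP receptors (ENSMUSG00000036867, chromosome 9, 63953076 to 64022059, minus strand, GRCm38). Normalized counts were 533 and 576 for control against 380.1 and 281 for Prmt5sKO. Both Prmt5sKO libraries were below both control libraries. The means were 555 ± 29.99 and 330.3 ± 70.4 (SD, n = 2 each). The fitted ratio of Prmt5sKO to control was 0.598 with a 95% interval of 0.382 to 0.935 (adjusted p = 0.342, limma-voom over all genes). Omission of single libraries gave log2 fold changes between -0.98 and -0.54. Among the 9 tested genes Smad6 had the smallest spread between control libraries, which 82.8% of all genes tested matched or exceeded.

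Promoter sequences from RefSeq (GRCm38.p6) matched 7 of the 10 genes by symbol: Id2, Id3, Id4, Bmp4, Smad6, Mstn and Inhba. Each window runs from 250 bases before the annotated start to 50 bases after it. Of the 4 genes whose groups did not overlap, the 3 with an entry are shown, from 250 bases before the start through the first 20 bases after it. Capitals mark E-boxes (CANNTG), the sequences to which MyoD, myogenin and E proteins bind, and the palindrome GTCTAGAC, a sequence that Smad3 and Smad4 can bind. The windows are chr9:64022040-64022309 on the minus strand for Smad6, chr1:53061390-53061659 on the plus strand for Mstn and chr14:46390650-46390919 on the minus strand for Bmp4.
Smad6: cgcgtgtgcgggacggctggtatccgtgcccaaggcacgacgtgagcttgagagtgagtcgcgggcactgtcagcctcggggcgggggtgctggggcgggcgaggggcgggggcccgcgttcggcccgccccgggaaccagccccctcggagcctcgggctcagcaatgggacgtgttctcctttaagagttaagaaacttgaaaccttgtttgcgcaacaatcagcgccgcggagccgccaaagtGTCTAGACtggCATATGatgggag
Mstn: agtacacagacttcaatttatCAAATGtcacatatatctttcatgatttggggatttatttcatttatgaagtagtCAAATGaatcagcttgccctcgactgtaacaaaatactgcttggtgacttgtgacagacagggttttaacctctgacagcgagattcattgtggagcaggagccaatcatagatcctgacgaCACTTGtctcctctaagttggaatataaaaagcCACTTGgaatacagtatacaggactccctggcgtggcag
Bmp4: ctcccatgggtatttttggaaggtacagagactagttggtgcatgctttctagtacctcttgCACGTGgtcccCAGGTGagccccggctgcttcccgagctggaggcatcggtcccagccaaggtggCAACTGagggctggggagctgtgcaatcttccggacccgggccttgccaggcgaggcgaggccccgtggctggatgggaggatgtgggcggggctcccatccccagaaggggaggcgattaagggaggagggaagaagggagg
The Smad6 window held 1 GTCTAGAC, which begins 4 bases before the start, and 0.213% of the 32851 promoter windows of the same length held one on either strand. It also held 1 E-box. The Mstn window held 4 E-boxes, which begin 229, 174, 52 and 19 bases before the start. The Bmp4 window held 3, beginning 188, 177 and 123 bases before the start. At least 1 E-box was in 72.3% of all windows. GGCGCC, a palindrome found in BMP response elements, was in the windows of Id2 and Id4, once each, and in 11.9% of all windows. GTCTAGAC and GGCGCC are their own reverse complements, and none of the 3 motifs can hold another. These matches describe letters, not bound sites.

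Smad7 encodes the inhibitory Smad that acts on both arms (ENSMUSG00000025880, chromosome 18, 75367529 to 75395935, plus strand, GRCm38). It had 3180.0 and 2465 normalized counts for control against 2694 and 1602 for Prmt5sKO. The deeper Prmt5sKO library lay between the control libraries and the shallower one below them. The log2 fold change was -0.43 with a 95% interval of -1.18 to 0.32, and without the shallower Prmt5sKO library it was -0.06.

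The Id genes are the best known BMP targets, and Id1, Id3 and Id2 had the highest levels of the 10 genes. Levels between genes are compared per length, as counts per kilobase of exon, scaled to a common library total. Id1 stood at 205 ± 27.7 in control and 161 ± 41.0 in Prmt5sKO (SD, n = 2 each), Id3 at 176 ± 21.8 and 181 ± 9.84, Id2 at 75.0 ± 13.9 and 83.7 ± 22.0, and Id4 at 1.33 ± 1.20 and 0.860 ± 0.0487. The libraries of Id1 and Id3 overlapped in each group. Within a library, Id1 was above Id3 in both control libraries and in the shallower Prmt5sKO library, and below it in the deeper one. Both were above Id2 in both libraries of each group. Smad7 followed at 38.7 ± 6.93 in control and 29.4 ± 10.6 in Prmt5sKO, again below Id2 in both libraries, and Smad6 at 10.7 ± 0.580 and 6.39 ± 1.36.

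Id1 (ENSMUSG00000042745, chromosome 2, 152736251 to 152737410, plus strand, GRCm38) stood at 4212 and 3479.5 normalized counts for control against 2462 and 3546 for Prmt5sKO. The deeper Prmt5sKO library was below both control libraries, whereas the shallower one lay between them. The log2 fold change was -0.37 with a 95% interval of -0.997 to 0.25 (adjusted p = 0.551, limma-voom). Without the deeper Prmt5sKO library it was -0.11 and without the shallower one -0.64.

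Id2 (ENSMUSG00000020644, chromosome 12, 25093799 to 25097140, minus strand, GRCm38) had 3337 and 2561 normalized counts for control against 3905 and 2681 for Prmt5sKO. Id3 (ENSMUSG00000007872, chromosome 4, 136143497 to 136145755, plus strand, GRCm38) had 5523 and 4634 for control against 5418 and 5015 for Prmt5sKO. Both Prmt5sKO values of Id3 lay between its control values. The 95% interval of the log2 fold change was -0.51 to 0.80 for Id2 and -0.47 to 0.55 for Id3, so that changes in either direction within these bounds are compatible with the 4 libraries. Id4 (ENSMUSG00000021379, chromosome 13, 48261228 to 48266026, plus strand, GRCm38) was far lower, at 136 and 29.8 normalized counts for control against 55.6 and 51.3 for Prmt5sKO. Its control libraries differed by a ratio of 4.55 and enclosed both Prmt5sKO values. The sign of its fitted difference depended on which control library was left out. Exons of A330033J07Rik and Gm49291 overlap those of Id4 on the opposite strand.

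As shares of the summed Id level per length, Id1 took 44.7% and 45.1% for control against 31.4% and 43.9% for Prmt5sKO. Id3 took 38.0% and 38.9% in control and 44.7% and 40.2% in Prmt5sKO. Id2 took 16.9% and 15.8% for control against 23.7% and 15.8% for Prmt5sKO. The deeper Prmt5sKO library therefore held relatively less Id1 and more Id2 than the other 3 libraries, which resembled each other. The summed Id level was 503 and 412 for control against 419 and 432 for Prmt5sKO, and the groups overlapped.

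**Figure D2:**
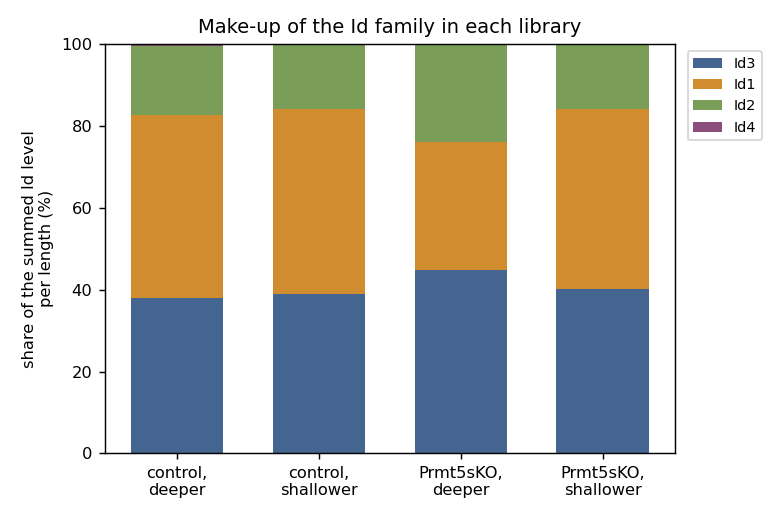
Share of each Id gene in the summed Id level per length, in percent, in each of the 4 libraries. Id1 and Id3 make up most of the level in every library, Id4 reaches at most 0.434%, and the deeper Prmt5sKO library has the smallest Id1 share, at 31.4%.

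Among 9 further BMP response genes 0 passed and 1, against 48.8% of all genes tested, had groups that did not overlap. This was Runx2, a transcription factor of bone formation, with 1789 and 2891 normalized counts for control against 1504 and 1029.8 for Prmt5sKO (log2 fold change -0.87, adjusted p = 0.351, limma-voom). Genes of the proteins that Id factors bind were compared next. The E protein genes Tcf3, Tcf4 and Tcf12 had log2 fold changes of -0.40, 0.46 and 0.36. The groups did not overlap for any of the 3, against 48.8% of all genes tested with groups apart. Tcf3 had 3456 and 3169.6 normalized counts for control against 2634 and 2377 for Prmt5sKO, Tcf4 had 1506 and 1913 against 2551 and 2133, and Tcf12 had 3157 and 3517 against 3945 and 4655. Myod1 had 15445 and 12944 for control against 12153 and 15548 for Prmt5sKO. Of the 7 genes on this list 0 passed, with 3 higher and 2 lower in both Prmt5sKO libraries (all genes, 25.2% and 23.6%). The largest difference was that of Myog, an early gene of muscle differentiation (log2 fold change 2.72, adjusted p = 0.276, limma-voom). Myog had 1436 and 1189 for control against 3707 and 19508 for Prmt5sKO, by far the most in the shallower Prmt5sKO library.

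Mstn encodes myostatin (ENSMUSG00000026100, chromosome 1, 53061640 to 53068079, plus strand, GRCm38). Normalized counts were 18.1 and 14.3 for control against 30.4 and 379 for Prmt5sKO, from 16, 11, 41 and 377 reads. Both Prmt5sKO libraries were above control, but the shallower exceeded the deeper by a ratio of 12.5, a difference that 1.91% of all genes tested matched or exceeded. The log2 fold change was 2.48 with a 95% interval of -2.03 to 6.995 (adjusted p = 0.580, limma-voom). Without the shallower Prmt5sKO library it was 0.87. Without the deeper one it was 4.50, a value that rests on the single Prmt5sKO library left. For Mstn, the shallower Prmt5sKO library exceeded the deeper by 3.62 on the log2 scale. For the 10 markers of differentiating muscle the median excess was 3.67. Of these markers, 8 were higher in both Prmt5sKO libraries, against 25.2% of all genes tested. The part of differentiating cells in the Mstn difference was not tested.

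Inhba encodes the subunit of activin A (ENSMUSG00000041324, chromosome 13, 16011851 to 16031621, plus strand, GRCm38). Normalized counts were 185 and 2.59 for control, from 164 and 2 reads, against 125 and 47.3 for Prmt5sKO. Both Prmt5sKO values lay between the control values. The ratio between the control libraries was 71.5, and 0.173% of all genes tested differed as much between them. The log2 fold change was 1.58 with a 95% interval of -2.27 to 5.44. It was 4.63 without the deeper and -1.19 without the shallower control library, so that no direction could be given for Inhba.

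Of the 8 ligand genes of this arm, Mstn and Inhba included, 0 passed, 5 were higher in both Prmt5sKO libraries, against 25.2% of all genes tested, and 3 overlapped. Their median log2 fold change was 1.38, beside 0.02 over all genes tested. This median counts Inhba at 1.58, a gene for which no direction could be given. All 5, which were Mstn, Inha, Inhbb, Tgfb2 and Tgfb3, were higher in the shallower than in the deeper Prmt5sKO library. The shallower one stood apart in muscle differentiation, whose part in these ligand differences was not tested. Inhbb had 244 and 165 normalized counts for control against 291 and 322 for Prmt5sKO. Tgfb2 had 216 and 224 normalized counts for control against 319 and 819 for Prmt5sKO, and Tgfb3 had 530.0 and 285 against 648 and 2268. Inha, the inhibin alpha subunit, had 50.9 and 54.5 normalized counts for control against 104 and 304 for Prmt5sKO. Among the 6 receptors tested 0 passed, with 3 higher and 1 lower in both Prmt5sKO libraries, against 25.2% and 23.6% of all genes. Acvr2b, a receptor of myostatin and activin, had 57.6 and 161 for control against 43.7 and 43.2 for Prmt5sKO. Acvr2a had 527 and 549 for control against 592 and 813 for Prmt5sKO. Tgfbr3, which presents TGF-beta and inhibin to their receptors, had 13.6 and 10.4 for control against 70.4 and 50.3 for Prmt5sKO (log2 fold change 2.28, adjusted p = 0.305, limma-voom). Of their Smads, Smad3 had 516 and 272 for control against 413 and 1124 for Prmt5sKO. The 3 genes of activin and TGF-beta Smads gave 0 calls, and Zfyve9, an anchor protein of Smad2 and Smad3, had 796 and 901 against 763 and 763. Among 8 TGF-beta response genes 0 passed. Tgfbi had 13.6 and 12.97 for control against 5.19 and 3.02 for Prmt5sKO, and Tagln had 657 and 819.6 against 847 and 1076. The 7 genes of Smad degradation and repression had log2 fold changes between -0.16 and 0.33, with 0 calls, and Zfyve16 was the single one whose groups did not overlap, at 684 and 831 against 994 and 900.1.

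Fst encodes follistatin (ENSMUSG00000021765, chromosome 13, 114452290 to 114458951, minus strand, GRCm38) and had the largest fitted difference of the 9 genes. Normalized counts were 249 and 46.7 for control against 573 and 1292 for Prmt5sKO. Both Prmt5sKO libraries were above both control libraries, although the control libraries differed by a ratio of 5.33. The means were 148 ± 143 and 933 ± 509 (SD, n = 2 each). The fitted ratio was 7.51 with a 95% interval of 1.88 to 30.02 (log2 fold change 2.91, standard error 0.82, adjusted p = 0.284, limma-voom over all genes). Omission of single libraries gave log2 fold changes between 1.78 and 4.16. It passed without the deeper Prmt5sKO library (3.51, adjusted p = 0.0276, limma-voom) and with a replicate block in which deeper libraries were paired with shallower ones of the other group (2.74, adjusted p = 0.0208, limma-voom). With the deeper libraries paired instead, it did not pass (2.70, adjusted p = 0.358, limma-voom). In level per length Fst stood at 1.99 ± 1.93 in control, where it overlapped Id4 and Inhba, and at 12.6 ± 6.87 in Prmt5sKO, where it was above Smad6 in both libraries. Exons of Gm47040 overlap those of Fst on the opposite strand. Among 8 myostatin and activin binders tested 0 passed, and the binder next in size of difference with groups apart was Ltbp4, at 426 and 451 for control against 331 and 189 for Prmt5sKO.

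**Figure D3:**
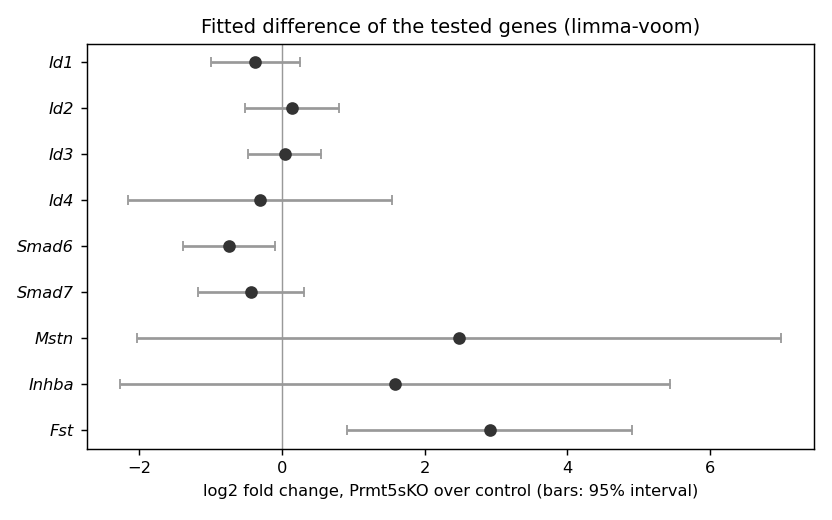
Log2 fold change of Prmt5sKO over control (points) with its 95% interval (bars) from limma-voom for the 9 genes tested. The intervals of Fst, from 0.91 to 4.91, and of Smad6, from -1.39 to -0.10, lie on one side of 0 before adjustment over all genes, and the 7 others span it.

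**Figure D4:**
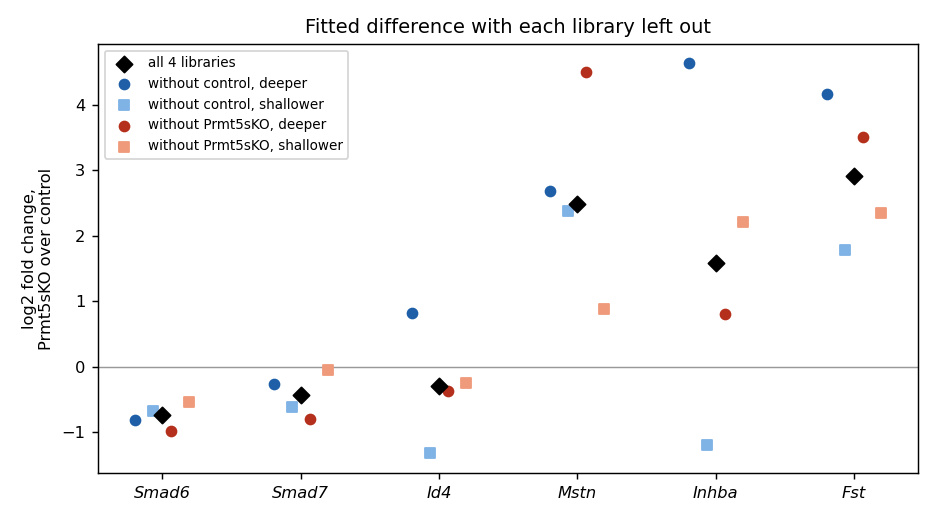
Log2 fold change of 6 of the genes with all 4 libraries (diamonds) and with each library left out in turn (coloured points). Inhba ranges from -1.19 to 4.63 and Id4 from -1.33 to 0.81, crossing 0, while Smad6 stays between -0.98 and -0.54 and Fst between 1.78 and 4.16.

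Fst was higher in the shallower than in the deeper Prmt5sKO library by 1.17 on the log2 scale, the library in which markers of differentiating muscle were higher as well. Other cell types were checked beside the Fst difference. The summed normalized counts of 4 listed smooth muscle and pericyte markers were 2276 to 4045 in control and 6288 to 10258 in Prmt5sKO. Of the 4, 3 were higher in both Prmt5sKO libraries (Rgs5, Cspg4 and Notch3), against 25.2% of all genes tested. Rgs5 had 1774 and 128 for control against 2367 and 4163 for Prmt5sKO. Myh11, a smooth muscle marker with few reads, overlapped, at 10.2 and 9.08 against 6.67 and 10.1. Those of 7 fibroblast markers were 6006 to 13685 and 14703 to 16974. Nearly all of this sum was Col3a1, at 13308 and 5774 for control against 13988 and 16357 for Prmt5sKO. Pdgfrl and Cd34 were also higher in both Prmt5sKO libraries, while the groups overlapped for Pdgfra, Ly6a, Lum and Dpt. The paper counts CD34 among the proteins of MuSC themselves, so that Cd34 does not mark fibroblasts alone in these cultures. Pdgfra had 38.4 and 44.1 for control against 43.7 and 17.1 for Prmt5sKO, and Lum had 0 and 27.2 against 0 and 0. The 4 listed endothelial markers summed to 124 to 163 in control and 56.3 to 90.4 in Prmt5sKO, and the 4 listed haematopoietic markers to 133 to 160 and 73.4 to 125. Of the endothelial markers, Pecam1, Cdh5 and Kdr were lower and Tek was higher in both Prmt5sKO libraries. Cdh5, too low for the test, had 2.26 and 14.3 normalized counts for control against 0.741 and 0 for Prmt5sKO, and Tek had 13.6 and 27.2 against 43.0 and 29.2. In bulk RNA, fewer cells of a type and less RNA per cell cannot be told apart, and the part of these cells in the Fst difference was not tested. The genes nearest to Fst in their 4 centred log2 values were Ephx1, Dcxr and Lgals9, at root mean square distances of 0.197, 0.238 and 0.250 over the 4 libraries. Those nearest to Id3, the member with the highest mean count, were Snf8, Kctd2 and Nsmaf, at distances of 0.0148, 0.0167 and 0.0185.

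**Figure D5:**
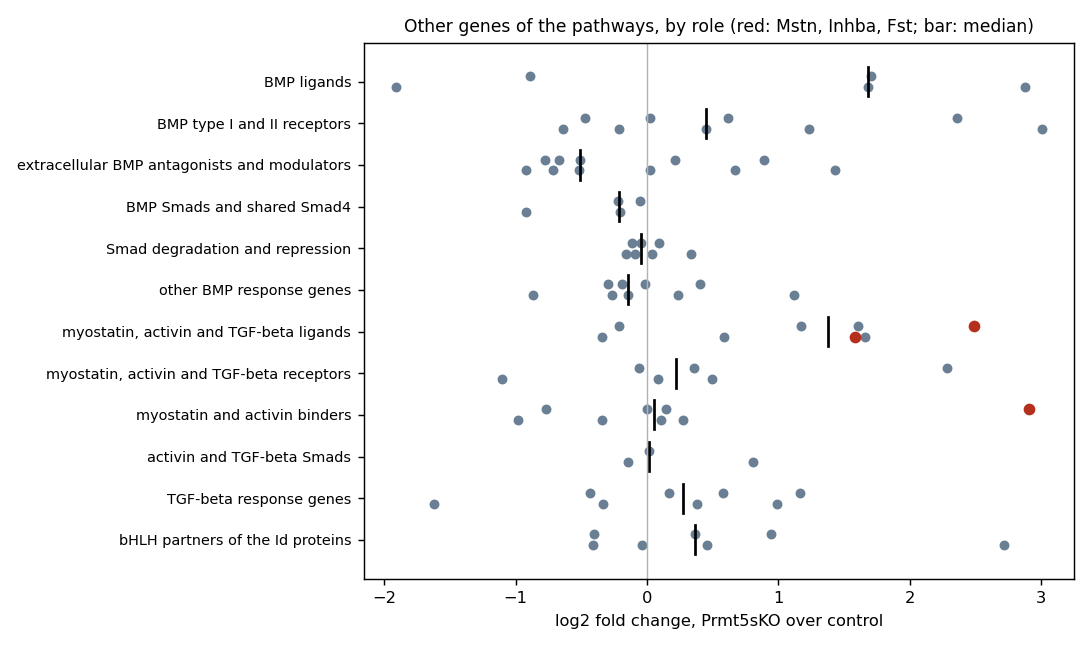
Log2 fold change of Prmt5sKO over control for the tested genes of 12 lists of pathway genes, 1 list per row, with list medians as bars and Mstn, Inhba and Fst in red. Points scatter on both sides of 0 in 11 lists, the exception being the BMP Smads with Smad4, where the 4 values lie between -0.92 and -0.05.

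Over all 12 lists without the 10 genes, 82 of 94 genes were tested and 0 passed. An unadjusted p under 0.05 (limma-voom) was found for 6, against 13.0% of all genes tested. Groups did not overlap for 35, with 21 higher (all genes, 25.2%) and 14 lower (all genes, 23.6%) in Prmt5sKO. Against 48.8% of all genes tested with groups apart, this was 35 of 82. Their median log2 fold change was 0.02.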

How the data were processed

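RNA of 4 libraries of cultured MuSC, 2 per group, was depleted of ribosomal RNA and sequenced on an Ion Torrent Proton. Per the study's methods, the authors trimmed reads (Reaper), aligned them to mm10 (GRCm38) with STAR 2.4.0a and compared the groups with DESeq2 1.62. The tool that counted reads per gene is not given in the sources used here. The signal values that the authors deposited are group means of counts divided by size factors. Further deposited columns with the authors' overall mean, fold changes, standard errors and p-values were not used. The lowest listed mean is 0.900.

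Each group mean is made of 2 step sizes, 1 per library, from which whole counts were recovered for 100% of the genes (largest relative residual 5.6e-15). The recovery and the test were checked on simulated data. The recovered counts were scaled by TMM (own code, trims of 30% and 5%) and compared with limma-voom (limma 3.58.1, R 4.3.3) at a minimum mean of 5. Thresholds follow the study's methods. Count-model tools were not run. Columns carry no replicate numbers, so both pairings of libraries were tried. Symbols, coordinates and exon lengths came from GENCODE M21, which held 19782 of 20065 identifiers.

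The members, lists and motifs were chosen with earlier results of these data known. Genes named were the 10 members, at most 2 genes of each list with groups apart and the largest log2 fold change, a set of receptors, Smads and Id partners whatever their values, Prmt5, and the 3 genes nearest to Id3 and to Fst. Inhbb, Tgfb2, Tgfb3, single marker genes and the genes of the closing section were chosen after their values were seen. One gene that this rule names is not reported here. Bmp3, Bmp10, Gdf2, Gdf7, Acvr1c and Dlx5 are not analysed here. Whether counting used strand is not given in the sources used here.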

Additional observations from a re-analysis of the deposited data

How the results depend on the processing

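Over 12 alternatives, 98 of 108 values of the 9 genes kept their direction and side of the threshold, 3 came to pass it and 7 changed sign. Where 1 library was left out, the lone library of its group was assumed to vary like the other group. Called genes then ranged from 0 to 2 of the 10, from 0 to 8 on the pathway lists and from 0 to 489 over all genes. The 489 and the 8 came without the deeper Prmt5sKO library, when Mstn (4.50) and Fst (3.51) passed, and 55 genes were called without the shallower one. The log2 fold change ranged from -0.13 to 0.42 for Id2, from -0.077 to 0.16 for Id3, from -1.33 to 0.81 for Id4 and from -1.19 to 4.63 for Inhba. The replicate block with the deeper libraries paired called 0 genes. The crossed replicate block, chosen after seeing the data, called 346 genes, 1 of the 10 (Fst, 2.74) and 5 on the lists, with Inhba at -0.080. Within-group differences had a correlation of -0.25 under the first pairing and 0.25 under the crossed one, over 11470 genes. No paired design is given by the labels for these columns. The other scalings, no filter on low counts and limma-trend called 0 genes, with 1 or 2 of the 10 at an unadjusted p under 0.05. Library size alone moved the median of all genes from 0.02 to 0.13. The cause of these changes was not tested. With at most 11 reads per library, Bmp4 was too low to test.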

Other observations

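The control libraries differed from each other in several secreted factors and markers, which were picked after their values were seen. Grem1, a BMP antagonist, had 1425 normalized counts in the deeper control library and 259 in the other. Rgs5, a pericyte marker, had 1774 and 128, and Cd34 had 220.4 and 24.6. These differences had the same sign as those of Fst, Inhba and Id4. Other markers on the same lists had the opposite sign, among them Cspg4 (1345 and 1543), Pdgfra (38.4 and 44.1), Ly6a (15.8 and 29.8) and Lum (0 and 27.2). Decorin (Dcn), which binds TGF-beta and myostatin, had 7.91 and 115, the opposite sign. In the Prmt5sKO libraries, Tgfb3 had 648 and 2268 and Col1a2 3925 and 12522 in the deeper and shallower library, which was the order of Mstn and Fst.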
